A study of Mus musculus with 6 samples.

Results

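*Rerg* and 8 related genes for small Ras-like GTPases were described across lineage-labeled alveolar type 2 cells (AT2s) with and without a constitutively active BMP receptor. The 9 genes are *Rerg*, *Rasl11a*, *Rasl11b*, *Rasl12*, *Rasd1*, *Rasd2*, *Diras2*, *Rras* and *Rras2*, out of 24421 genes in the deposited table. *Rerg* was chosen from its own values, since it was lower in all 3 AT2CAB libraries, so its difference is given below as a description without a test. The other 8 genes were listed as its relatives, and all 9 passed the expression filter. Poly(A) RNA was sequenced from FACS-sorted, tdTomato-labeled cells of 3 AT2CTRL and 3 AT2CAB mice on a C57BL/6 background, 1 library per mouse. AT2CTRL mice had the genotype *Sftpc-CreERT2/+; R26-tdTomato/+*. AT2CAB mice carried *Sftpc-CreERT2/+* with *R26-tdTomato* on one *Rosa26* allele and *R26-caBmpr1a*, which encodes the active form of the type I receptor BMPR1a, on the other. Both groups therefore carry the same Cre, driven from the AT2 gene *Sftpc*, and the same reporter, and both received tamoxifen. The reporter and the receptor allele recombine separately, so a labeled cell need not express the active receptor. In each group 1 mouse was 16 weeks old (AT2CTRL replicate 2 and AT2CAB replicate 1) and the other 2 were 12 weeks old.

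Small GTPases of the Ras family act as switches that are on when bound to GTP and off when bound to GDP. Exchange factors load GTP, GTPase-activating proteins speed its hydrolysis, and the loaded form binds effectors such as RAF kinases, PI3-kinases and exchange factors for the Ral proteins. Most Ras proteins reach membranes through a lipid tail added at their C terminus. RERG takes its name from regulation by estrogen and from growth inhibition in breast cancer cells, and RASD1 from its induction by the glucocorticoid dexamethasone.

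The libraries held between 21554249 and 28440227 counts, and 3 counts correspond to between 0.0976 and 0.138 CPM (counts scaled by TMM to the same library total). Like every limit from counts, that covers counting error alone. The 8 markers of AT2s summed to at least 97511 CPM in every library. *Id1*, a direct target of BMP signaling, had from 18.5 to 20.8 CPM in AT2CTRL and from 124.4 to 411.4 CPM in AT2CAB libraries. AT2CTRL replicate 1 and AT2CAB replicate 3 stood apart, with 176.4 and 146.3 CPM on 4 Y-linked genes against 0 in the other 4 libraries, and values within those 4 libraries and within the pair are given where they bear on a result.

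*Rerg*, the gene for the estrogen-regulated growth inhibitor, was lower in every AT2CAB library. It had 101.5, 99.1 and 126.6 CPM in AT2CTRL replicates 1, 2 and 3, and 47.7, 45.9 and 44.0 CPM in AT2CAB replicates 1, 2 and 3. The groups did not overlap, and the 3 AT2CAB values lay close together while AT2CTRL replicate 3 was the highest of its group. *Rerg* averaged 109.1 ± 15.2 CPM in AT2CTRL and 45.9 ± 1.86 CPM in AT2CAB (SD, n = 3), which is 2.38-fold lower in AT2CAB, and the fitted log2 fold change (log2FC, AT2CAB over AT2CTRL) was -1.25 (standard error, SE, 0.13). Among the 16723 genes tested, 33 had a lower log2FC. The drop was of similar size in libraries with and without reads on Y-linked genes, with a log2 ratio of -1.21 within the pair and a log2FC of -1.24 in the other 4 libraries. *Rerg* lies on the reverse strand of chromosome 6 (mm10, 137054825 to 137170496), and none of its exons overlaps an exon of another gene in the table. In bulk RNA, fewer *Rerg*-expressing cells and less *Rerg* RNA per cell cannot be told apart. The summed AT2 markers were also lower, at 112545 to 127235 CPM in AT2CTRL and 97511 to 107886 CPM in AT2CAB libraries, and 4 of the 8 had all AT2CAB values below all AT2CTRL values, as did 10.1% of all tested genes. That sum was 1.16-fold lower, and most of it came from *Sftpc* and *Sftpb*, with log2FC values of -0.15 and 0.013. The 4 markers without overlap, *Sftpa1*, *Etv5*, *Lamp3* and *Slc34a2*, had -0.61, -0.54, -0.53 and -0.33 (edgeR adjusted p from 0.416 to 0.621). *Abca3* and *Napsa* had -0.20 and -0.28. The part of a change in AT2 markers in the difference of *Rerg* was not tested.

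*Rasd2*, which encodes the striatum-enriched GTPase Rhes, showed the opposite picture and was higher in every AT2CAB library. It had 23.9, 35.1 and 39.7 CPM in AT2CTRL replicates 1, 2 and 3, and 60.5, 84.9 and 90.0 CPM in AT2CAB replicates 1, 2 and 3. The lowest AT2CAB library was above the highest AT2CTRL library, although the spread within each group was wider than for *Rerg* in AT2CAB. The means were 32.9 ± 8.12 and 78.5 ± 15.7 CPM (SD, n = 3), 2.38-fold higher in AT2CAB, with a log2FC of 1.25 (SE 0.22). This did not pass the threshold over all genes (edgeR quasi-likelihood, Benjamini-Hochberg adjusted p = 0.0959). It ranked at place 63 of 16723 genes by p-value. DESeq2, the tool named in the study's methods, gave an adjusted p of 6.74e-05 with a log2FC of 1.26, so the call for *Rasd2* depends on how the test is set up. Without a filter on low counts the adjusted p from edgeR was 0.0398. Within the pair with reads on Y-linked genes the log2 ratio was 1.91, against a log2FC of 0.99 in the other 4 libraries (edgeR adjusted p = 0.0547), and this gap was not tested. The summed level of 10 mesenchymal markers was higher too, at 157.1 to 207.7 CPM in AT2CTRL and 248.5 to 308.8 CPM in AT2CAB libraries. That of 8 endothelial markers was 238.6 to 536.6 CPM and 470.1 to 777.1 CPM, with overlap between groups. All 10 mesenchymal and all 8 endothelial markers had a log2FC above 0, and none of the 18 passed the test. The mesenchymal sum was 1.51-fold and the endothelial sum 1.56-fold higher in AT2CAB. The mesothelial, immune and neuroendocrine sums were 1.75-fold, 1.35-fold and 1.12-fold higher, each with overlap between groups. The sum of the AT1 markers overlapped too, with a ratio of AT2CAB to AT2CTRL of 0.969. The part of other cells in the difference of *Rasd2* was not tested. The 7 airway markers summed to 720.8 to 907.3 CPM in AT2CTRL and 836.8 to 1217 CPM in AT2CAB, which is 1.32-fold higher with overlap between groups. Of these, *Tppp3*, a ciliated cell marker, rose (log2FC 1.85, edgeR adjusted p = 0.0165), while *Foxj1*, another, had a log2FC of 0.61 (edgeR adjusted p = 0.570). *Scgb1a1* of club cells, the largest part of the sum, had a log2FC of 0.17 (edgeR adjusted p = 0.820). *Cyp2f2*, also of club cells, had -0.53 (edgeR adjusted p = 0.190), and *Scgb3a2* had -0.058 (edgeR adjusted p = 0.961). Of the basal cell markers, *Krt5* was at 0 counts in all libraries and *Trp63* had 1.03 to 4.10 CPM. *Rasd2* lies on the forward strand of chromosome 8 (mm10, 75213944 to 75224113), again with no exon shared with another gene.

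**Figure D1:**
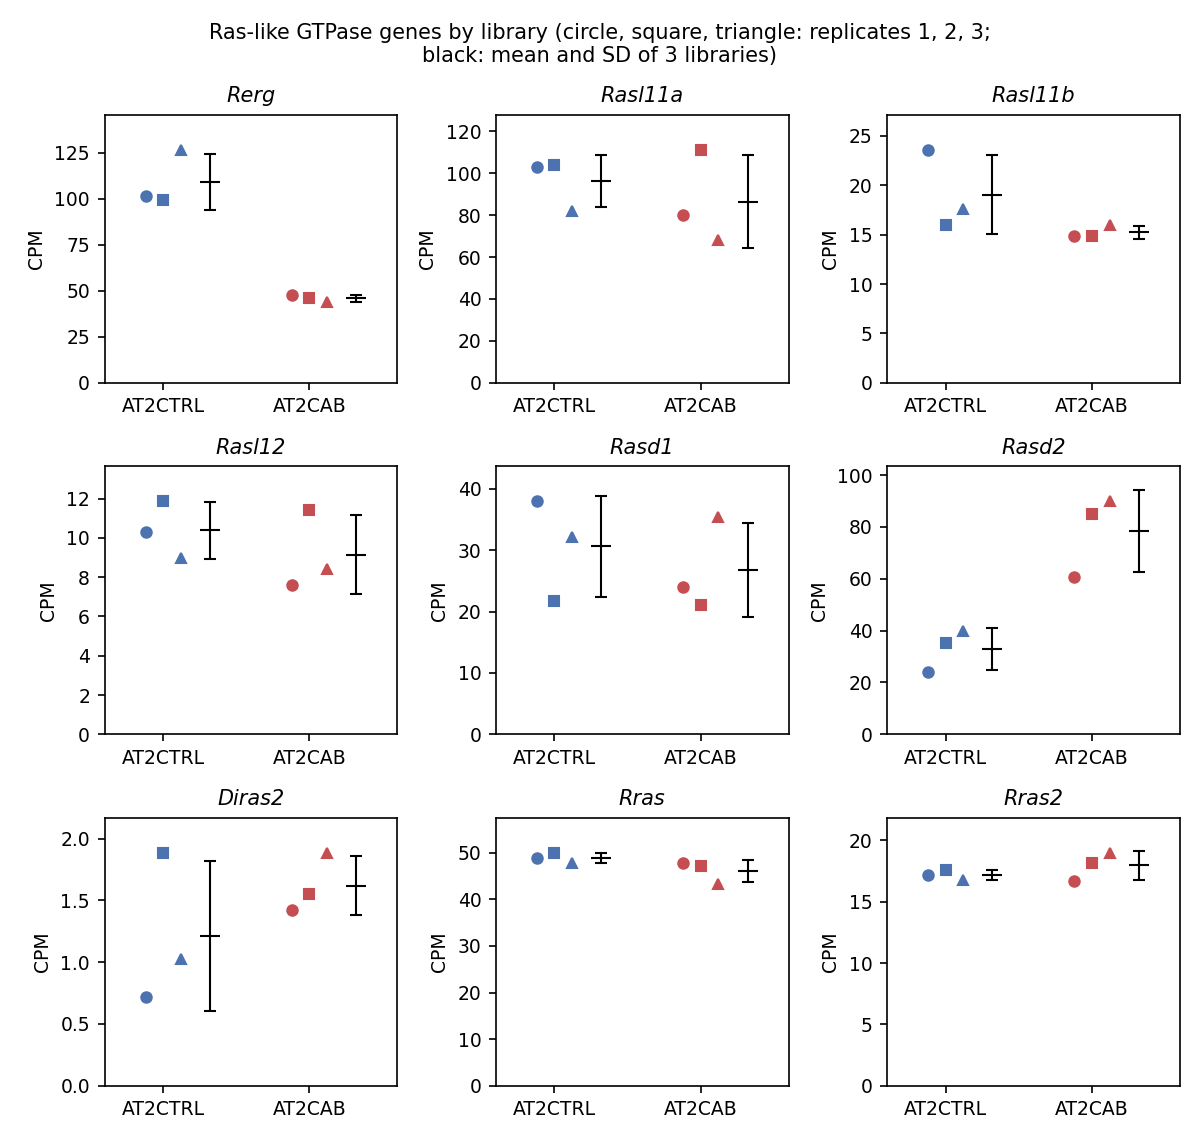
CPM of the 9 Ras-like GTPase genes in each library, with AT2CTRL in blue, AT2CAB in red, 1 symbol per replicate number, and the mean and SD of 3 libraries in black. *Rerg* and *Rasd2* are the genes with a wide gap between the groups, with *Rerg* at 44.0 to 47.7 CPM and *Rasd2* at 60.5 to 90.0 CPM in AT2CAB.

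With both genes set side by side per kilobase of exon, the ratio of *Rasd2* to *Rerg* was 0.194, 0.291 and 0.258 in AT2CTRL replicates 1, 2 and 3. In AT2CAB replicates 1, 2 and 3 it was 1.04, 1.52 and 1.68. A ratio within a library does not depend on how libraries are scaled to each other, and *Rasd2* exceeded *Rerg* per length in each AT2CAB library and in no AT2CTRL library. As a share of the summed level of the 9 genes per kilobase, *Rerg* made up from 18.1% to 23.6% in AT2CTRL and from 8.57% to 10.5% in AT2CAB. The share of *Rasd2* was from 3.51% to 6.09% and from 10.96% to 16.1%. Since *Rerg* was chosen for its drop, these ratios are descriptive.

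Promoter sequences of 300 bases around the start (250 before, 50 after) were taken from RefSeq (GRCm38.p6, the assembly of mm10) for 7 of the 9 genes. *Rerg* and *Rasd1* had no entry. The 2 promoters below are shown because they alone among the 7 genes hold GGCGCC, a GC-rich motif bound by the SMADs of the BMP pathway, and they belong to genes with different values. *Rasd2* was higher in all AT2CAB libraries, while the groups overlapped for *Rasl11a*. Capitals mark GGCGCC, which reads the same on both strands. It starts 20 bases before the start site in *Rasd2* (chr8:75213694-75213993, forward strand) and at base 4 after it in *Rasl11a* (chr5:146844821-146845120, forward strand).
*Rasd2*: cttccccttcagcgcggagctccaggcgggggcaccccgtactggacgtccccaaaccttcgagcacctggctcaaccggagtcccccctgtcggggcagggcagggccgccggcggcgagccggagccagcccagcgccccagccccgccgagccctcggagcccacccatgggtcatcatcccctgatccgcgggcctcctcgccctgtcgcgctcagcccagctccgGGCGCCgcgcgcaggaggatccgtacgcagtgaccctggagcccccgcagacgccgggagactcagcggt
*Rasl11a*: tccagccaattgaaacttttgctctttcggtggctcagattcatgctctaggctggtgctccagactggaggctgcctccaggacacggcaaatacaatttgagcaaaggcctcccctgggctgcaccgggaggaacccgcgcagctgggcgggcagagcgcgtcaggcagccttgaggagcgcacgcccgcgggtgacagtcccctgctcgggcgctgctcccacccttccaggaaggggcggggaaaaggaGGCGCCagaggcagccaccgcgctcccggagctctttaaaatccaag
GGCGCC was present in 11.9% of the 32851 promoters in the table. The palindrome GTCTAGAC, another element bound by SMAD proteins, also reads the same on both strands and cannot overlap GGCGCC. It was present in 0.213% of promoters and in none of the 7 genes. The *Rasd2* promoter had a GC content of 74.7% and 33 CpG dinucleotides, and that of *Rasl11a* had 63.7% and 19, against medians of 52.7% and 7 over all promoters. A match is a run of letters in this window and not a measured binding site.

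Among the close relatives of *Rerg*, no difference beyond the spread between libraries was detected. *Rasl11a*, which encodes a nucleolar protein linked to transcription of ribosomal RNA genes, had 103.0, 103.7 and 82.2 CPM in AT2CTRL and 79.8, 111.1 and 68.3 CPM in AT2CAB replicates 1, 2 and 3. The groups overlapped, the highest and the lowest library were both AT2CAB, and the log2FC was -0.16 (SE 0.19, edgeR adjusted p = 0.823). Its direction was not the same in the libraries with and without reads on Y-linked genes, with -0.59 within the pair and 0.077 in the other 4 libraries. *Rasl11b*, its paralog, had 23.6, 16.0 and 17.6 CPM in AT2CTRL and 14.9, 14.8 and 15.9 CPM in AT2CAB. All AT2CAB values were below all AT2CTRL values, but by a narrow margin, and AT2CTRL replicate 1 was well above the rest. Its log2FC was -0.32 (SE 0.17, edgeR adjusted p = 0.589), against -0.14 among the 4 libraries lacking Y-linked reads. *Rasl12* had 10.3, 11.9 and 8.99 CPM in AT2CTRL and 7.61, 11.4 and 8.40 CPM in AT2CAB, with overlapping groups and a log2FC of -0.18 (SE 0.21, edgeR adjusted p = 0.806). For *Rasl12*, 91 exon bases overlap *Slc51b* on the opposite strand, and reads there were left out of the counts because strand was not used.

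*Rasd1*, the dexamethasone-induced relative of *Rasd2*, had 38.0, 21.7 and 32.1 CPM in AT2CTRL and 23.9, 21.03 and 35.4 CPM in AT2CAB replicates 1, 2 and 3. The groups overlapped almost fully, and the 2 highest libraries were AT2CTRL replicate 1 and AT2CAB replicate 3, the pair with reads on Y-linked genes. Its log2FC was -0.19 (SE 0.25, edgeR adjusted p = 0.838). Reads on 126 exon bases shared with *Med9* on the opposite strand were left out of its counts. On a list of 8 glucocorticoid-induced genes, AT2CAB replicate 3 was the highest library for 7. *Fkbp5*, a co-chaperone of the glucocorticoid receptor, had 82.1 CPM there and 17.4 CPM in AT2CTRL replicate 1, against 7.76 to 9.03 CPM in the other 4 libraries. *Zbtb16*, a transcription factor, had 355.7 and 55.0 CPM in those libraries and 13.5 to 23.4 CPM in the others. Both genes are named here because of their values, and the count of 7 has no share over all tested genes beside it. AT2CAB replicate 3 also stood apart within its group. Its chi-square per degree of freedom, for agreement within counting noise, was 80.5 and 61.2 against replicates 1 and 2. Between AT2CAB replicates 1 and 2 it was 16.4. The libraries with the highest *Rasd1* were also those with the highest *Fkbp5*, *Zbtb16* and *Sgk1*, although the order was not the same, since *Rasd1* was highest in AT2CTRL replicate 1. For the other listed genes, *Tsc22d3*, *Per1*, *Klf9*, *Dusp1* and *Errfi1*, AT2CTRL replicate 1 was not among the 2 highest libraries. *Nr3c1*, which encodes the glucocorticoid receptor, had a log2FC of -0.080 (edgeR adjusted p = 0.923).

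**Figure D2:**
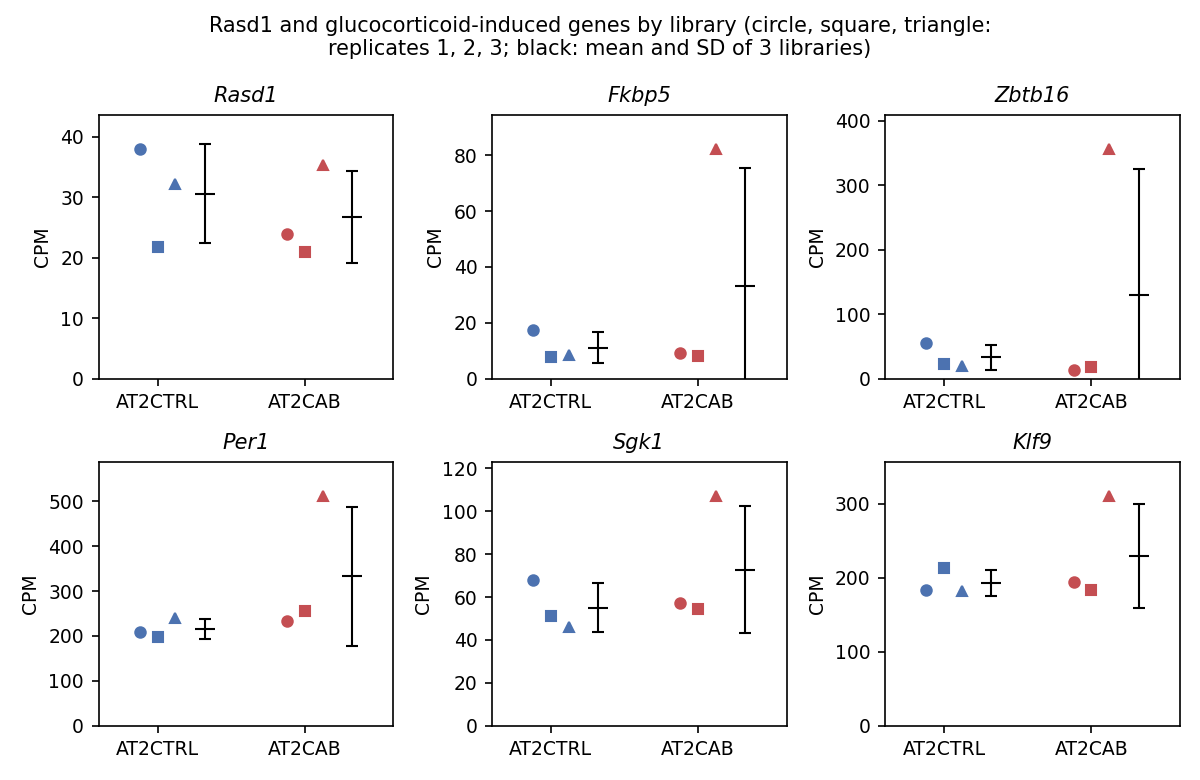
CPM of *Rasd1* and 5 of the 8 listed glucocorticoid-induced genes in each library, with 1 symbol per replicate number and the mean and SD of 3 libraries in black. *Tsc22d3*, *Dusp1* and *Errfi1* are not shown, and *Errfi1* was highest in AT2CTRL replicate 2. AT2CAB replicate 3 (triangle) is the highest library for the 5 glucocorticoid-induced genes shown and is below AT2CTRL replicate 1 for *Rasd1*. The axes start at 0, so the lower SD bars of *Fkbp5* and *Zbtb16* in AT2CAB, which extend below it, end there.

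The R-Ras genes varied least between AT2CTRL libraries, though not between AT2CAB libraries, where *Rerg* did. *Rras*, whose product promotes integrin activation, had 48.9, 50.1 and 47.8 CPM in AT2CTRL and 47.7, 47.2 and 43.3 CPM in AT2CAB, with a coefficient of variation of 2.29% within AT2CTRL. The AT2CAB values were all below the AT2CTRL values by a very small margin, with a log2FC of -0.087 (SE 0.10, edgeR adjusted p = 0.815), which turned to 0.041 when libraries were scaled by size only. *Rras2*, which encodes the Ras relative TC21, had 17.2, 17.6 and 16.8 CPM in AT2CTRL and 16.7, 18.2 and 19.0 CPM in AT2CAB. Its groups overlapped, with a log2FC of 0.064 (SE 0.12, edgeR adjusted p = 0.893). *Diras2*, mostly known from brain, had low counts, with 16, 44 and 27 counts in AT2CTRL and 31, 40 and 58 counts in AT2CAB. Its log2FC of 0.42 had a SE of 0.50 (edgeR adjusted p = 0.816), so no difference beyond the spread between libraries was detected. The part of sequencing depth in that spread was not tested. The log2 ratio of *Diras2* was 1.40 within the pair with Y-linked reads, and its log2FC was 0.069 in the other 4 libraries.

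**Figure D3:**
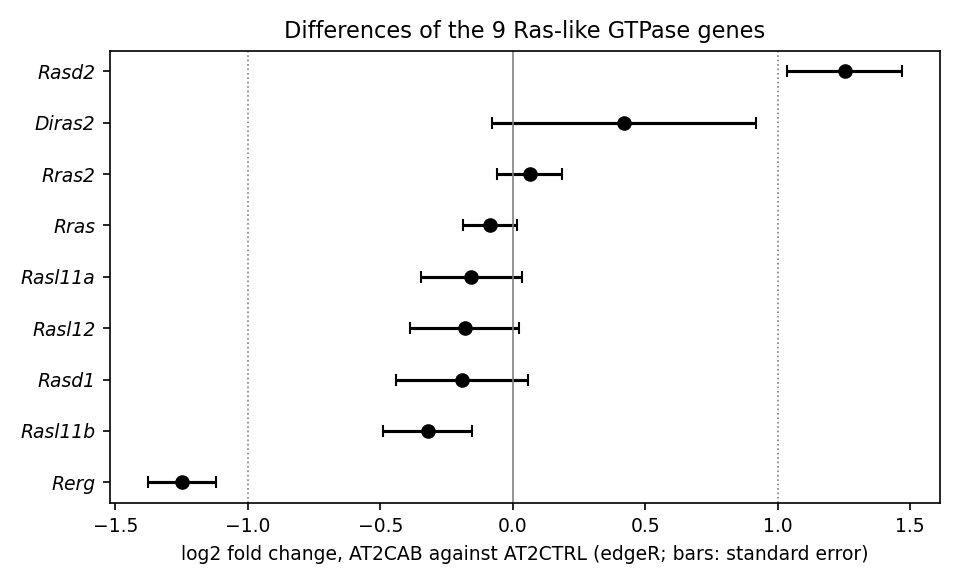
Fitted log2FC of each of the 9 genes, AT2CAB against AT2CTRL, with bars of 1 SE and dotted lines at a 2-fold difference. *Rerg* (-1.25) and *Rasd2* (1.25) lie outside the dotted lines, and the other 7 genes lie between -0.32 and 0.42.

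By edgeR, 0 of the 8 genes other than *Rerg* passed an adjusted p of 0.05 with a fold change over 2, where 0.227% of all tested genes were called higher and 0.012% lower. Without the fold threshold 0.251% of tested genes passed. At an unadjusted p under 0.05 there was 1 of the 8 (*Rasd2*), against 9.67% of all tested genes. DESeq2, which gave an adjusted p for 7 of the 8 and none for *Diras2*, called 1 (*Rasd2*), against 1.05% of all genes with an adjusted p in either direction. Limma-voom called 0 of the 8. Groups did not overlap for 3 of the 8 (*Rasd2*, *Rasl11b* and *Rras*), against 17.1% of all tested genes. The median log2FC of the 9 genes was -0.16, beside -0.0096 over all tested genes. That median includes *Rerg*, which was chosen for its drop, so it is a description only. For 1 gene at a time, the smallest two-sided p that exact permutation of 3 and 3 libraries allows is 0.1.

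Levels between genes were compared per kilobase of exon. In AT2CTRL the order was *Rasl11a* (85.5 ± 10.9 CPM per kilobase, SD, n = 3), *Rras* (51.7 ± 1.18), *Rerg* (47.2 ± 6.58), *Rasd1* (19.0 ± 5.11), *Rasd2* (11.7 ± 2.89), *Rasl11b* (10.8 ± 2.27), *Rras2* (7.56 ± 0.172), *Rasl12* (2.68 ± 0.373) and *Diras2* (0.278 ± 0.139). The libraries of *Rras* and *Rerg* overlapped in this order, as did those of *Rasd1* and *Rasd2* and of *Rasd2* and *Rasl11b*, while the other neighbours did not. In AT2CAB *Rasd2* (27.9 ± 5.60) ranked next after *Rras*, above *Rerg* (19.8 ± 0.804) in every library, and *Rerg* overlapped with *Rasd1* (16.6 ± 4.73). *Rasl11a* (76.7 ± 19.7) and *Rras* (48.7 ± 2.54) had the highest means in both groups. By its AT2CTRL mean per kilobase, *Rerg* was above 94.4% of the genes in the table, and *Rasd2* above 77.6%.

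**Figure D4:**
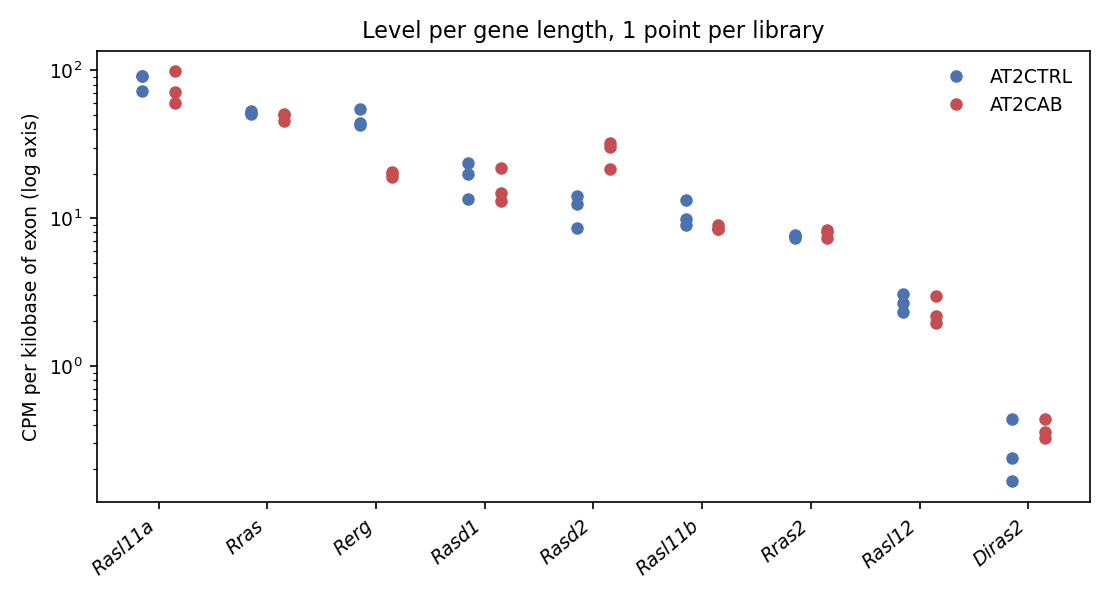
Level of each gene per kilobase of exon in CPM on a log axis, with 1 point per library, AT2CTRL in blue and AT2CAB in red. The genes are ordered by their AT2CTRL mean, from *Rasl11a* at 85.5 to *Diras2* at 0.278, and *Rasd2* lies below *Rerg* in AT2CTRL and above it in AT2CAB.

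The 5 tested genes whose log2 CPM followed that of *Rerg* most closely over the 6 libraries were *Fam187b*, *4921524J17Rik*, *Cnot11*, *Ube2d3* and *Nampt*, with Pearson correlations from 0.987 to 0.988. Each was lower in all AT2CAB than in all AT2CTRL libraries, and the 6 points fall into the 2 groups of the study, so the correlation includes the difference between the groups. Their log2FC values were from -0.54 for *4921524J17Rik* to -0.24 for *Ube2d3*, and none passed the threshold in edgeR (adjusted p from 0.287 to 0.598).

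Beyond the 9 genes, 7 lists held genes of the Ras pathway, with 6 steroid receptor and 8 glucocorticoid-induced genes tested beside them. Of the 105 genes tested in all, 0 passed an adjusted p of 0.05 in edgeR, with or without the fold threshold. At an unadjusted p under 0.05 there were 10, with *Dusp1* of the glucocorticoid list among them, or 9.52%, close to the 9.67% of all tested genes. DESeq2 and limma-voom also called 0 of them with the fold threshold. Without it, DESeq2 called 2 of the 100 it gave an adjusted p, against 2.09% of all such genes, namely *Ralgapa2* (adjusted p = 0.00577) and *Tiam1* (adjusted p = 0.0380). Among the other GTPases of the Ras subfamily, 21 of 26 were tested, and 16 of them had a log2FC below 0, with a median of -0.13. *Gem*, an inhibitor of voltage-gated calcium channels, had 293.2 ± 56.7 CPM in AT2CTRL and 194.1 ± 17.0 CPM in AT2CAB (SD, n = 3), with no overlap and a log2FC of -0.60 (SE 0.16, edgeR adjusted p = 0.291). *Rem1*, of the same RGK group, had a log2FC of 0.82 (SE 0.49, edgeR adjusted p = 0.624) at levels under 2 CPM. *Hras* and *Nras*, which the rule for named genes did not pick and which were chosen after their values were seen, had log2FC values of -0.11 and -0.20 (edgeR adjusted p = 0.787 and 0.617). *Rit2*, *Diras1*, *Eras*, *Rergl* and *Rasl10b* did not pass the expression filter, and *Rergl*, the nearest relative of *Rerg* by name, had 0.0381 CPM in AT2CTRL replicate 3 and 0 in the other libraries.

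Regulators and effectors were tested in the same fit. Of 21 GTPase-activating proteins, 10 had a log2FC above 0 and 11 below, and *Ralgapa2*, a catalytic subunit of the Ral-specific complex, had 228.3 ± 8.60 CPM in AT2CTRL and 150.1 ± 18.3 CPM in AT2CAB (SD, n = 3). Its groups did not overlap, with a log2FC of -0.61 (SE 0.13, edgeR adjusted p = 0.149). *Rasa3*, which acts on Ras and Rap1, had a log2FC of 0.59 (SE 0.17, edgeR adjusted p = 0.311). Of 20 exchange factors, 13 had a log2FC above 0, and *Rgl1* for Ral and *Rasgrp2* for Rap1 had log2FC values of 0.55 and 0.39 (edgeR adjusted p = 0.570 and 0.504). Among 19 effectors, *Tiam1*, an exchange factor for Rac that binds Ras, had 3.53 ± 0.578 CPM in AT2CTRL and 6.60 ± 0.397 CPM in AT2CAB (log2FC 0.90, SE 0.23, edgeR adjusted p = 0.268). *Mapk3*, which encodes ERK1, had a log2FC of 0.49 (SE 0.14, edgeR adjusted p = 0.339), with no overlap between groups. All 10 genes on the list for lipid modification, which holds enzymes that add, trim or remove lipid tails and their partners *Golga7* and *Pde6d*, had a log2FC below 0, as did 51.2% of all tested genes. The values lay between -0.27 (*Fnta*, the shared subunit of the prenyltransferases) and -0.039, with a median of -0.14. Groups did not overlap for 3 of the 10, against 17.1% of all tested genes, and the *Fnta* difference and that of the thioesterase gene *Lypla1* (-0.18) had adjusted p-values of 0.509 and 0.627 in edgeR.

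Of 7 steroid receptor genes 6 were tested, with a median log2FC of 0.38. The estrogen receptor gene *Esr1*, named because *Rerg* is an estrogen-regulated gene, had 2.51, 0.729 and 0.761 CPM in AT2CTRL and 2.70, 0.970 and 2.80 CPM in AT2CAB replicates 1, 2 and 3. Its groups overlapped (log2FC 0.70, SE 0.64, edgeR adjusted p = 0.751). *Esr2* was at a like level, from 0.723 to 2.67 CPM. *Gper1*, the listed gene that was not tested, had 0.343 to 0.685 CPM in AT2CTRL and 0.155 to 0.275 CPM in AT2CAB libraries. Its groups did not overlap. The list of glucocorticoid-induced genes had a median of 0.41, with 7 of 8 above 0. By the rule *Dusp1*, a MAP kinase phosphatase (log2FC 0.42, SE 0.16, edgeR adjusted p = 0.448), and *Tsc22d3* (log2FC 0.16, SE 0.11, edgeR adjusted p = 0.669) are named. AT2CAB replicate 3 was the highest library for 7 of these 8 genes, and the groups overlapped for all but *Dusp1* and *Tsc22d3*.

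**Figure D5:**
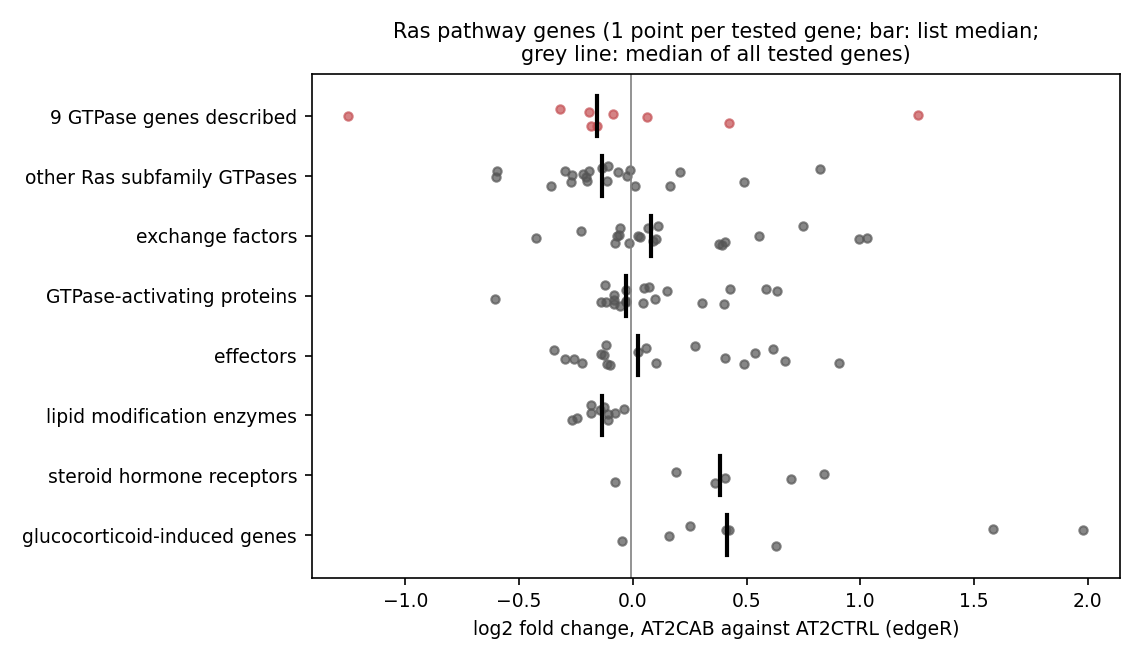
Fitted log2FC of every tested gene on the 7 lists, which hold Ras pathway, steroid receptor and glucocorticoid-induced genes, and of the 9 Ras-like GTPase genes (red). Black bars mark the medians and a grey line the median of all tested genes (-0.0096). The medians lie between -0.16, for the 9 genes with *Rerg*, and 0.41. *Rerg*, which was chosen for its drop, is the lowest gene shown at -1.25.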

How the data were processed

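AT2s were lineage labeled, sorted by FACS and sequenced as paired reads from poly(A) RNA, with 3 mice per group. The authors deposited 1 table of raw counts for 24421 genes and 6 libraries, without normalization. Per the study's methods and the file header, reads were trimmed, aligned to mm10 with Hisat2, cleared of duplicates and counted on exons with featureCounts 1.5.3, without strand and without options for read pairs or overlapping genes. Even numbers made up from 56.9% to 60.8% of counts between 1 and 20, so mates appear to have been counted singly, which overstates the precision of low counts.

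Groups came from the sample titles. The test was the quasi-likelihood F test of edgeR 4.0.16 (R 4.3.3) on TMM-scaled libraries, for the 16723 genes left by filterByExpr (minimum count 10), with Benjamini-Hochberg adjustment over them. A call needed both a fold over 2 and an adjusted p under 0.05. The standard error is the log2 fold change divided by the square root of F. DESeq2 1.42.0 and limma 3.58.1 served as alternatives. The fit was tested on simulated data. CPM use TMM-scaled totals, and levels per kilobase use the exon length in the deposited table. No pair of libraries of a group agreed within counting noise (chi-square per degree of freedom at least 13.2). P-values set the difference between groups against the spread between the 3 mice of a group, with that spread moderated over the tested genes.

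The members and lists were chosen with earlier results of these data known. Pathway genes named are those with an adjusted p under 0.05 and up to 2 per list with the largest difference among genes whose groups do not overlap. In GENCODE M21 transcripts, 0 runs of 31 bases were shared between members, and at most 2.39% (*Rasl12*) of a member's runs occurred in any other gene. Protein sequences were not used here.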

Additional observations from a re-analysis of the deposited data

How the results depend on the processing

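Over 17 alternatives, *Rerg* had a log2 fold change from -1.32 to -1.12 and *Rasd2* from 0.99 to 1.43. The adjusted p of *Rasd2* was under 0.05 in 3 of them, DESeq2 (6.74e-05), no filter on low counts (0.0398) and the replicate block (0.0225), and between 0.0530 and 0.462 in the others. These 3 settings called 1 of the 8 members other than *Rerg*, against 0 in the reported fit. Replicate numbers name different mice in each group, and same-numbered libraries correlated at -0.24, 0.20 and -0.53 once group means were removed, so the numbers do not pair the samples. Under the replicate block *Rerg* had -1.24 and *Rasd2* 1.26. The sign changed for *Rasl11a* among the 4 libraries lacking Y-linked reads (0.077) and without AT2CAB replicate 3 (range over libraries left out -0.36 to 0.030), and for *Rras* with library size only (0.041). No other member changed sign. *Rasd1* ranged from -0.41 (without AT2CAB replicate 3) to -0.014 (without AT2CTRL replicate 1), *Rasl12* from -0.36 (without AT2CAB replicate 2) to -0.037 (without AT2CAB replicate 1) and *Diras2* from 0.15 (without AT2CTRL replicate 1) to 0.88 (without AT2CTRL replicate 2), none of them called. The 7 lists had 0 calls under each alternative.

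Over all genes, 38 were called higher and 2 lower. DESeq2 called 119 and 25, and limma-voom 25 and 1. The number lower was 1 with upper-quartile scaling, library size only or age as a covariate, 5 with no filter (57 higher) or the replicate block, and 8 among those 4 libraries. Leaving out 1 library in turn gave from 6 to 59 higher and from 0 to 4 lower. The cause of these shifts was not tested. The median log2 fold change of all genes moved from -0.0096 to 0.12 with library size only, so values there are shifted upward by about that much.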

Other observations

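The genes beside *Rerg* and *Rasd2* on the chromosome, chosen by position after the members' values were known, did not share their differences past the test. The nearest tested genes before *Rerg* on chromosome 6 were *Erp27* and *Arhgdib*, with log2 fold changes of 0.083 and 0.72 (edgeR adjusted p = 0.966 and 0.641). After it came *Ptpro* and *Eps8*, with 0.88 and -0.75 (edgeR adjusted p = 0.647 and 0.438), and the groups overlapped for all 4. Around *Rasd2* on chromosome 8, *Hmox1*, *Mcm5*, *Nr3c2* and *Arhgap10* had log2 fold changes of -0.18, -0.12, 0.19 and -0.37 (edgeR adjusted p = 0.633, 0.892, 0.877 and 0.591). *Hmox1*, which encodes the stress-induced heme oxygenase, was the 1 gene of these 8 whose groups did not overlap, against 17.1% of all tested genes.

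*Diras1* and *Rasl10b*, of the same Ras subfamily and named after their values were seen, did not pass the expression filter and were not tested. *Diras1* had 3.27 CPM in AT2CTRL replicate 1 and 3.55 CPM in AT2CAB replicate 3, the pair with reads on Y-linked genes, and at most 0.367 CPM in each of the other 4 libraries. *Rasl10b* had from 0.0897 to 0.257 CPM in AT2CTRL and from 0.321 to 1.79 CPM in AT2CAB libraries, with no overlap between groups.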
